A study of Canis lupus familiaris with 12 samples.

Results

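Described here are 9 genes that macrophages use to bind and take up material from their surroundings: the scavenger receptors CD36, MARCO, MSR1, CD163 and STAB1, the lectins MRC1, CLEC4G and SIGLEC1, and the endocytic adaptor DAB2. They were chosen by name, from earlier results on the total exon reads of these same libraries across the 4 treatment groups, and are 9 of the 29822 genes listed in the deposited tables. All 9 have 1 row each and no numbered copy, and all 9 passed the filter on low counts that left 13358 genes for testing. Because the treatment differences helped to choose them, those differences are given below as a description, with no p-value for any of the 9. "Called" means a Benjamini-Hochberg adjusted p under 0.05 over all 13358 genes in edgeR's quasi-likelihood test, and is set beside the share of all tested genes that were called. For DESeq2, limma-voom and fits with other filters, reads or libraries that share is not given, and their counts cannot be read against it.

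The cells were peripheral blood mononuclear cells (PBMCs, the lymphocytes and monocytes of blood) of dogs, cultured for 24 h. They came from healthy male beagles kept free of specified pathogens as blood donors, whose age, number and pooling the labels do not give. The 4 groups, with 3 libraries each, were cells without either agent (untreated), cells with 5-aminolevulinic acid at 1 mM (ALA, a building block of heme), cells with concanavalin A at 0.5 µg/ml (ConA, a plant lectin that stimulates T cells), and cells with both (ConA+ALA). Libraries are numbered 1 to 3 in every group, and the labels do not say whether a number is a separate animal, so the p-values given here cover only the scatter among these libraries, and that scatter may be technical. The name macrophage comes from the genes' usual setting and not from the labels, which name PBMCs only.

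Scavenger receptors bind modified lipoproteins, dying cells, bacteria and polyanions, and lectins bind sugar chains. Monocytes carry few of some of them in blood and gain others as they mature in tissue or culture. CD36 also takes up long-chain fatty acids, CD163 clears hemoglobin bound to haptoglobin, and MRC1 internalises mannose-rich glycoproteins. DAB2 links cargo receptors to clathrin-coated pits.

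Exon reads per library ran from 13390692 to 21517099. The libraries of number 1 stood apart from the others in every group: mitochondrial genes took 3.59 to 4.819% of their exon reads against 11.85 to 23.35% in numbers 2 and 3, and introns 29.1 to 34.12% of gene reads against 34.53 to 43.27%. Monocyte markers fixed for this purpose were found for 13 genes. Their summed level was 533 to 848 CPM in untreated cells, 404 to 1423 with ALA, 157 to 414 with ConA and 222 to 529 with ConA+ALA, with FCN1 at 0 in all groups. CPM here are counts scaled to the library size after TMM normalization. CSF1R, the receptor for the main macrophage growth factor, lay at 81.4 to 203 CPM in untreated cells and 13.6 to 40.5 with ConA. LYZ, encoding lysozyme, lay at 49.4 to 192 and 3.81 to 8.09. CD14 and PF4 were not analysed here. How far this marker level bears on the values below was not tested, and in bulk RNA fewer cells of a type and less RNA per cell cannot be told apart.

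The genes are annotated as follows on CanFam3.1, the build in the submitters' processing notes. CD36 (ENSCAFG00000006401) lies on chromosome 18 at 20339050 to 20372639 on the plus strand with 15 exons, and DAB2 (ENSCAFG00000018622) on chromosome 4 at 69625527 to 69648321, plus strand, with 20 exons. MARCO (ENSCAFG00000004913) is on chromosome 19 at 30996347 to 31034487, minus strand, 15 exons, and MSR1 (ENSCAFG00000006830) on chromosome 16 at 39436753 to 39527438, minus strand, 15 exons. CD163 (ENSCAFG00000013968) is on chromosome 27 at 37669827 to 37753106, plus strand, 25 exons, and MRC1 (ENSCAFG00000004496) on chromosome 2 at 19069120 to 19185691, minus strand, 35 exons. STAB1 (ENSCAFG00000009273) and CLEC4G (ENSCAFG00000018312) are both on the minus strand of chromosome 20, STAB1 at 37249746 to 37276535 with 69 exons and CLEC4G at 52476200 to 52479930 with 9. SIGLEC1 (ENSCAFG00000006219) is on chromosome 24 at 17636026 to 17666854, plus strand, 23 exons. Exon reads were 100% unique to the gene for 8 of the 9, and 99.98% for STAB1. STAB1 overlaps SPCS1 on the same strand and NT5DC2 on the opposite strand, which held up to 1812 and 1335 exon reads in a library, and no source used here says whether counting used strand.

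**Figure D1:**
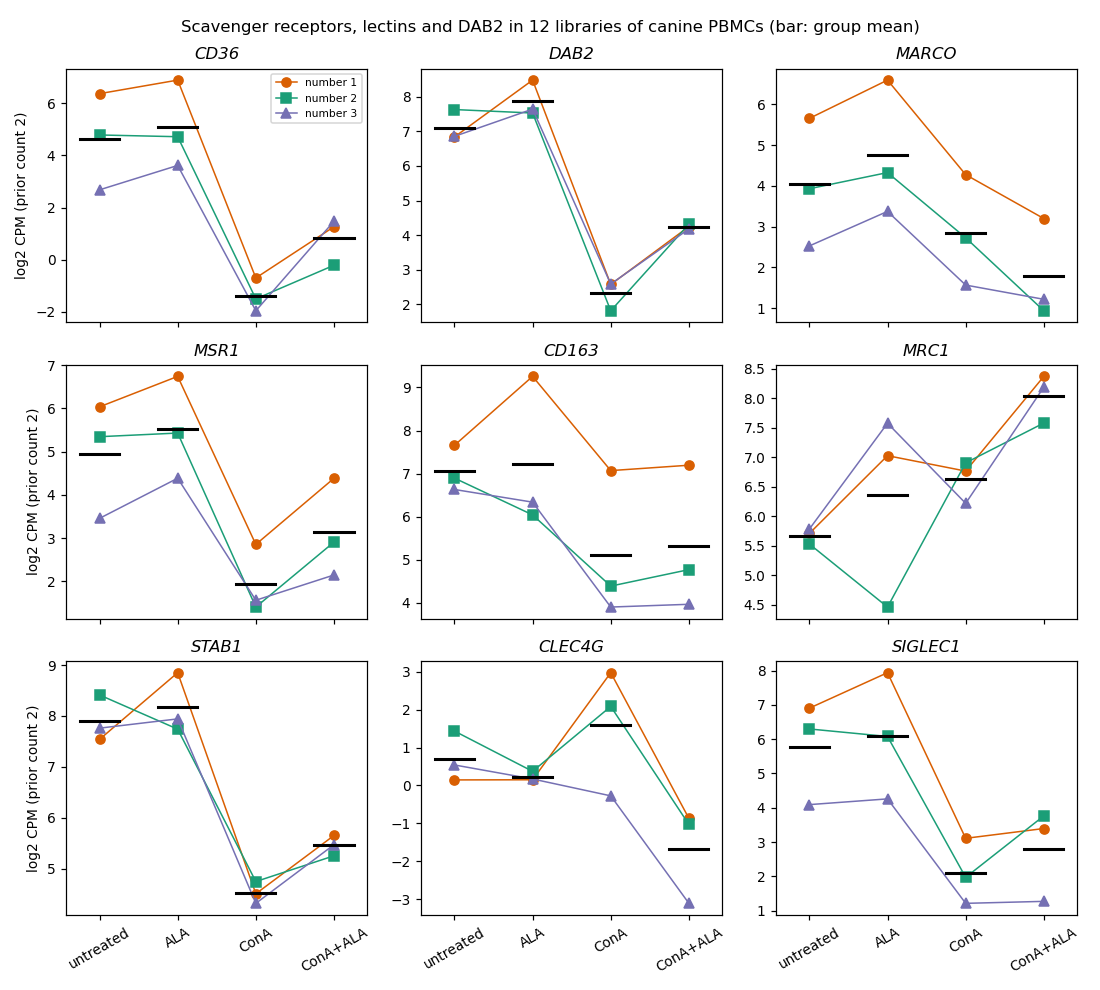
Level of each gene in the 12 libraries, as log2 CPM with a prior count of 2 (vertical axis), by treatment group (horizontal axis). Points are libraries, lines join libraries of the same number and black bars are group means; CD36, DAB2, MSR1, STAB1 and SIGLEC1 lie lower with ConA than without it in all 3 numbers, and MRC1 lies higher.

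With ConA, 5 of the 9 genes fell against untreated cells, CD36, DAB2, MSR1, STAB1 and SIGLEC1, and 0 rose. Of all tested genes 18.5% were called in this comparison, 8.57% as lower. The median log2 fold change of the 9 was -3.20, against -0.05 over all tested genes. With the library number as a block in the model, 7 of the 9 fell, MARCO and CD163 in addition, where 42.5% of all genes were called. MRC1 and CLEC4G had positive differences that were not called in either model.

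CD36, the fatty acid and oxidised LDL receptor, had the largest difference of the 9. Untreated libraries 1, 2 and 3 held 1825, 423 and 108 exon reads, or 82.1, 27.3 and 6.28 CPM. The ConA libraries held 13, 3 and 2 reads, or 0.501, 0.238 and 0.142 CPM. The groups did not overlap, and number 1 was highest in both. The mean went from 38.6 ± 39.2 to 0.294 ± 0.186 CPM (SD, n = 3), and the fitted log2 fold change was -6.88 ± 1.25 (SE). The ConA level rests on 18 reads in all. Without number 2 the difference was -6.93 and no longer called. CD36 is also a gene of platelets and red cell precursors, and the summed level of 9 platelet markers was 24.0 to 79.7 CPM in untreated cells and 7.62 to 27.1 with ConA, and that of 9 red cell markers 163 to 312 and 39.4 to 190. Their part in the result was not tested.

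DAB2, the clathrin adaptor, was next in size. Its CPM in numbers 1, 2 and 3 was 114, 198 and 116 in untreated cells and 5.85, 3.41 and 5.90 with ConA. The lowest untreated library was thus far above the highest ConA library. The difference was -4.81 ± 0.36 (SE), with means of 142 ± 47.8 and 5.05 ± 1.42 CPM (SD, n = 3).

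STAB1, encoding stabilin-1, which takes up acetylated LDL and matricellular proteins, fell as well. Untreated libraries lay at 186, 340 and 217 CPM and ConA libraries at 22.6, 26.7 and 19.8. No ConA library came near the untreated ones. The log2 fold change was -3.43 ± 0.34, from 248 ± 81.8 to 23.0 ± 3.47 CPM.

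MSR1 and SIGLEC1 fell from levels that differed widely between numbers. MSR1, the class A receptor for modified LDL, lay at 65.6, 40.6 and 10.9 CPM in untreated libraries 1 to 3 and at 7.12, 2.54 and 2.84 with ConA, a log2 fold change of -3.20 ± 0.84. SIGLEC1, the sialic acid-binding lectin sialoadhesin, lay at 119, 78.5 and 16.9 CPM untreated and at 8.51, 3.81 and 2.20 with ConA, a difference of -3.86 ± 1.05. In both genes the groups did not overlap, and the lowest untreated library was number 3. Their calls were lost when untreated 1, untreated 2, ConA 2 or ConA 3 was left out, and for SIGLEC1 also without ConA 1. In those fits, and in those without a whole number that lost the call, the differences were -3.17 to -2.59 for MSR1 and -4.58 to -3.27 for SIGLEC1.

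MARCO, the collagen-like receptor for bacteria and particles, and CD163, the hemoglobin-haptoglobin receptor, were lower with ConA in each number, but the groups overlapped. MARCO lay at 50.4, 15.1 and 5.64 CPM untreated and at 19.3, 6.50 and 2.84 with ConA. Its difference was -1.30 ± 1.04, not called, and -1.22 ± 0.24 with the number as a block, called. CD163 lay at 202, 119 and 99.1 CPM untreated and at 134, 20.9 and 14.9 with ConA. The drop in CD163 was small in number 1 (-0.59 on the log2 scale) and larger in numbers 2 and 3 (-2.51 and -2.73). Its fitted difference was -1.30 ± 1.10, not called, and -2.08 ± 0.49 with the block, called.

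MRC1, the mannose receptor, was higher with ConA in all 3 numbers. Untreated libraries lay close together at 52.0, 46.0 and 54.8 CPM, and ConA libraries at 108, 119 and 74.2. In CPM the groups did not overlap, and the difference of 0.98 ± 0.54 was not called. Its raw exon reads were 1156, 711 and 942 untreated and 2815, 1506 and 1044 with ConA. Those that crossed a junction between exons were 590, 142 and 138 untreated and 1360, 142 and 133 with ConA. Raw counts are not scaled to library size as CPM are, so these junction reads do not compare the level between the groups. In number 3, for example, 942 and 1044 exon reads correspond to 54.8 and 74.2 CPM. The source of the exon reads that cross no junction was not tested. The value for MRC1 was called as higher when the untreated and ConA groups were fitted alone (0.98 ± 0.25) and when ALA 2, a library of neither group, was left out (0.98 ± 0.27). Dendritic cells also carry MRC1, and the summed level of 12 dendritic cell markers was 276 to 339 CPM in untreated cells, 245 to 330 with ALA, 484 to 608 with ConA and 442 to 496 with ConA+ALA. BATF3, which went from 17.7 ± 11.6 CPM untreated to 245 ± 122 with ConA, carried most of that difference. Of the 11 markers tested, BATF3 alone rose with ConA and CD1C, FCER1A and CLEC10A fell, and the median log2 fold change was -0.05. The part of these markers in the MRC1 values was not tested.

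CLEC4G, a C-type lectin better known from liver and lymph node sinus endothelium, was at the edge of detection. It held 22, 40 and 23 exon reads in untreated libraries and 201, 52 and 10 with ConA. ConA 1 and 2 were above all untreated libraries and ConA 3 below them, at 7.74, 4.12 and 0.711 CPM against 0.990, 2.59 and 1.34. The difference of 1.37 ± 0.84 was not called. Of 14 endothelial markers found, the summed level was 12.3 to 33.3 CPM in untreated cells and 8.17 to 8.78 with ConA, with EMCN and CLEC14A at 0 in both groups and STAB2 and ROBO4 at 0 with ConA.

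**Figure D2:**
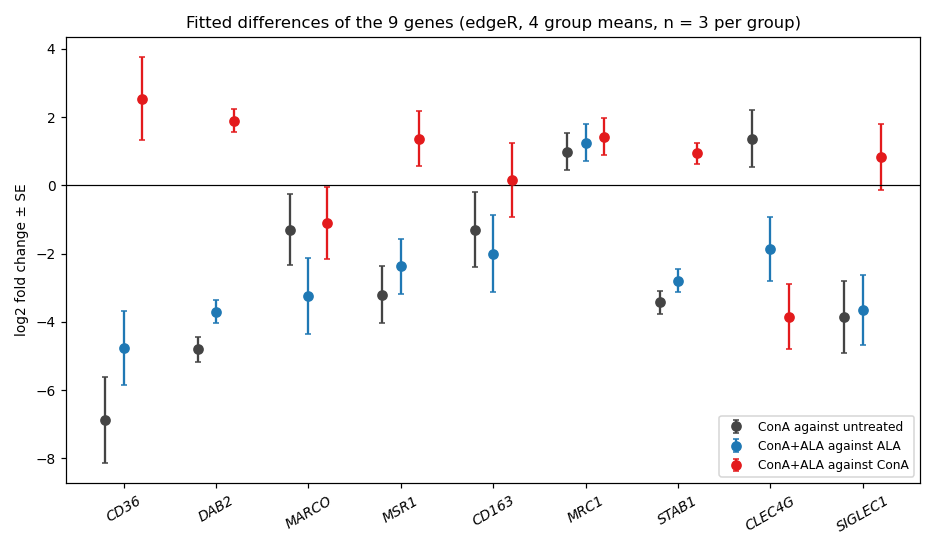
Fitted log2 fold change of each gene (vertical axis, points) with its SE (bars) for 3 comparisons, from the model with 4 group means and 3 libraries per group. The differences with ConA are negative for 7 of the 9 genes without ALA and for 8 with it, and those of ALA added to ConA are positive for 7.

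In the presence of ALA the same comparison, ConA+ALA against ALA, gave 3 of 9 genes as fallen, CD36, DAB2 and STAB1, where 8.12% of all genes were called and 3.03% as lower. With the number as a block it was 7 of 9 against 30.1% of all genes, adding MARCO, MSR1, CD163 and SIGLEC1. CD36 differed by -4.77 ± 1.08, DAB2 by -3.70 ± 0.34 and STAB1 by -2.80 ± 0.33. The values without a call were -3.25 ± 1.12 for MARCO (-3.09 ± 0.27 with the block), -2.38 ± 0.81 for MSR1 (-2.38 ± 0.27), -2.0 ± 1.13 for CD163 (-1.92 ± 0.48) and -3.65 ± 1.03 for SIGLEC1 (-3.35 ± 0.45). MRC1 again had a positive value, 1.25 ± 0.54, and CLEC4G a negative one, -1.86 ± 0.93. Within numbers, 8 genes were lower in 3 of 3 and MRC1 was higher in 3 of 3. The share of all genes with the same sign in 3 of 3 numbers was not computed, here or below. The call of CD36 was lost without ALA 1 or without any 1 of the ConA+ALA libraries, and also without any 1 of the numbers, with differences of -5.51 to -3.32. Those of DAB2 and STAB1 were lost without number 2, at -3.89 and -2.88.

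ALA alone left none of the 9 called. edgeR called 0% of all genes for ALA against untreated, and 0.0449% with the block. DESeq2 and limma-voom called none of the 9. Within numbers, 7 genes moved in mixed directions, while MARCO and MSR1 were higher with ALA in 3 of 3.

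The ALA differences were uneven between the numbers. In number 1, CD163 lay at 202 CPM untreated and 612 with ALA, and in numbers 2 and 3 at 119 and 99.1 against 65.8 and 80.8. STAB1 with ALA lay at 461, 214 and 246 CPM in numbers 1 to 3, SIGLEC1 at 245, 67.4 and 19.0, and DAB2 at 356, 184 and 199. ALA 1 thus held the highest level of each of these 4 genes in the series, and also of CD36, MARCO and MSR1. It also had the highest summed level of the 9 genes, 2127 CPM, against 643 and 779 in ALA 2 and 3 and 527 to 872 in untreated cells.

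MRC1 had another order. With ALA it lay at 130, 21.9 and 190 CPM in numbers 1 to 3, so that ALA 2 was below all untreated libraries and the others above them. Its difference of 1.16 ± 0.54 was not called. CD36 with ALA lay at 118, 26.1 and 12.1 CPM, MARCO at 96.7, 19.96 and 10.2, and MSR1 at 107, 43.1 and 20.8, each overlapping the untreated range. CLEC4G held 24, 18 and 13 exon reads.

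When ALA was added to ConA, 7 of the 9 genes were higher in 3 of 3 numbers and 2, MARCO and CLEC4G, lower in 3 of 3. The share of all genes with the same sign in 3 of 3 was not computed. Of all tested genes, 46.1% had a positive fitted difference. edgeR called none of the 9, and 0% of all genes. The 9 were chosen with the treatment differences known, so their number under an unadjusted threshold would be no test and is not given. With the block CLEC4G fell, where 0.554% of all genes were called. DESeq2 called DAB2 as higher and CLEC4G as lower, and limma-voom called none. The share of all genes called by these tools is not given here. The median log2 fold change of the 9 was 0.94, against -0.03 over all genes. This comparison and that of ConA with untreated cells share the ConA libraries. Sums of other marker lists, of which the neutrophil list shares S100A12 with the monocyte list, moved as well. The summed level of 9 neutrophil markers was 177 to 338 CPM with ConA and 941 to 2721 with ConA+ALA, against 975 to 1086 in untreated cells. That of platelet markers was 7.62 to 27.1 with ConA and 28.2 to 110 with ConA+ALA. These sums moved mostly with MMP9, at a mean of 65.7 CPM with ConA and 1226 with ConA+ALA, and with PPBP, at 10.2 and 43.4. Their part in the values below was not tested.

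**Figure D3:**
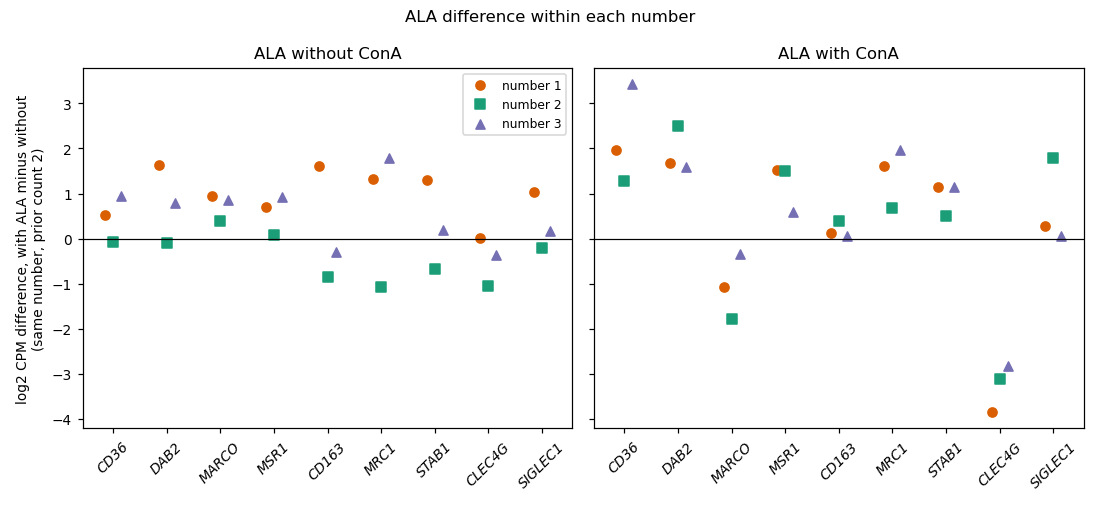
Log2 CPM with ALA minus that without ALA in the library of the same number (vertical axis), for each gene (horizontal axis), in cells without ConA (left) and with ConA (right). Points and colours are the numbers; with ConA every point is above 0 for 7 genes and below 0 for MARCO and CLEC4G, and without ConA 7 genes have points on both sides.

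For DAB2, the ConA libraries at 5.85, 3.41 and 5.90 CPM stood against 18.9, 19.8 and 18.0 with ConA+ALA. The ConA+ALA values lay within a narrow band, above all ConA libraries and far below all untreated ones. The difference was 1.90 ± 0.33, with a mean of 18.9 ± 0.90 CPM (SD, n = 3), and it was called by DESeq2 but not by edgeR, with or without the block, or by limma-voom. STAB1 went from 22.6, 26.7 and 19.8 to 50.1, 38.0 and 44.2 CPM, again with no overlap, a difference of 0.94 ± 0.31.

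CD36 held 53, 10 and 29 exon reads with ConA+ALA, or 2.29, 0.748 and 2.67 CPM. Every one of these was above the highest ConA library and below the lowest untreated one. The difference was 2.54 ± 1.21 (2.92 ± 1.15 with the block, not called). MSR1 lay at 20.8, 7.40 and 4.32 CPM, a difference of 1.37 ± 0.80 (1.25 ± 0.29 with the block, not called). SIGLEC1 lay at 10.4, 13.5 and 2.30 CPM, a difference of 0.83 ± 0.97 (0.85 ± 0.49 with the block, not called). In both the groups overlapped, and in SIGLEC1 number 2 alone moved by over 1 log2 unit (1.79, against 0.29 and 0.06). CD163 lay at 146, 27.2 and 15.5 CPM, a difference of 0.15 ± 1.09 (0.20 ± 0.48 with the block, not called).

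MRC1 reached its highest level of the series with ConA+ALA, at 330, 191 and 291 CPM. All 3 libraries were above the 3 ConA libraries, and the difference was 1.43 ± 0.55 (1.32 ± 0.64 with the block, not called). From low to high, its group means were untreated (50.9 ± 4.51 CPM), ConA (101 ± 23.6), ALA (114 ± 85.3) and ConA+ALA (271 ± 71.8, SD, n = 3 each). ConA and ALA, neighbours in that order, overlapped, and untreated and ConA did not. The highest ALA library (190.3 CPM) lay just under the lowest ConA+ALA library (190.7).

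MARCO lay at 9.06, 1.79 and 2.21 CPM with ConA+ALA, below ConA in each number (differences of -1.08, -1.79 and -0.35) but overlapping as groups. The fitted value was -1.11 ± 1.06, and -1.14 ± 0.27 with the block, called in neither. CLEC4G held 10, 5 and 0 reads, against 201, 52 and 10 with ConA. With 0 reads, ConA+ALA 3 allows up to 0.276 CPM, the level that 3 reads would have. The groups did not overlap, and the difference was -3.85 ± 0.96, or -3.76 ± 0.78 with the block. The 3 ConA+ALA libraries held 15 reads of it in all, and without ConA 1 the difference was -3.04.

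CD209, the gene next to CLEC4G on chromosome 20 (52518036 to 52520942, minus strand) and also a C-type lectin, was looked at after its values were seen. Its CPM was 35.1, 15.4 and 3.62 with ConA and 5.87, 8.08 and 0.551 with ConA+ALA. It was lower in each number, and the difference of -1.89 ± 1.09 was not called. In untreated libraries it lay at 74.9, 106 and 17.3 CPM, far above CLEC4G.

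The interaction asks whether ALA acted differently with ConA than without it. None of the 9 was called, by edgeR with or without the block, by DESeq2 or by limma-voom, and edgeR called 0% of all genes. The value was 1.10 ± 0.44 for DAB2 and -3.23 ± 1.25 for CLEC4G. CD36 had a value of 2.11 ± 1.5 and MARCO of -1.94 ± 1.47.

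To compare the genes with each other, TPM, the authors' values per unit of exon length, were used. In untreated cells DAB2 (61.1 ± 18.0 TPM), STAB1 (53.7 ± 13.7) and CD36 (48.4 ± 58.5) had the highest means, and MRC1 ranked 8 of the 9 with 15.8 ± 4.92. With ConA, MRC1 ranked 1 with 23.7 ± 10.6 TPM, and CD36 ranked 9 with 0.265 ± 0.255.

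The composition of the group shifted accordingly. MRC1 made up 6.05 ± 3.19% of the 9 genes' summed TPM in untreated cells and 9.53 ± 10.4% with ALA. With ConA it made up 46.1 ± 16.0% and with ConA+ALA 61.8 ± 11.2%. The MRC1 reads behind these shares differed in kind between the numbers. With ConA+ALA, 3100 of 7646 exon reads crossed a junction between exons in number 1, but 333 of 2550 and 427 of 3165 in numbers 2 and 3. The share of DAB2 went the other way, from 22.9 ± 9.16% in untreated cells to 3.54 ± 2.33% with ConA, and that of STAB1 from 20.7 ± 9.21 to 7.96 ± 3.37%. DAB2 reads also differed by number in untreated cells, where 837 of 2536 exon reads crossed a junction in number 1. In untreated 2 and 3 it was 479 of 3056 and 317 of 1986. With ConA it was 49 of 152, 15 of 43 and 19 of 83 in numbers 1 to 3. CD163 went from 14.6 to 32.5% in number 1, but from 10.9 to 9.19% in number 2 and from 16.7 to 10.4% in number 3. The summed TPM itself was 140 to 540 in untreated cells, 193 to 1127 with ALA, 28.0 to 129 with ConA and 64.5 to 205 with ConA+ALA.

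**Figure D4:**
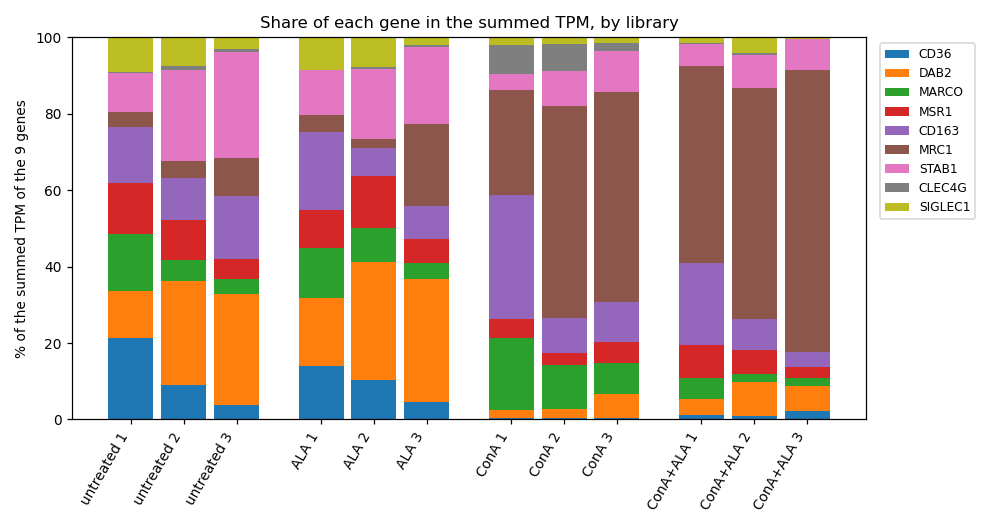
Share of each gene in the summed TPM of the 9 genes (vertical axis, percent) in each of the 12 libraries (horizontal axis). Stacked colours are the genes; MRC1 takes 27.7 to 55.6% of the sum with ConA and 51.4 to 73.7% with ConA+ALA, against 3.98 to 9.72% in untreated cells.

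The library number was not part of how the genes were chosen, and its effect was tested within the model of group plus number. It was called for 5 of the 9, near the 48.5% of all tested genes. MARCO was 43.9, 10.8 and 5.23 CPM on average in numbers 1, 2 and 3 (adjusted p = 3.4e-07 in edgeR's quasi-likelihood test). MSR1 was 50.1, 23.4 and 9.71 (edgeR, adjusted p = 2.4e-05), CD163 274, 58.2 and 52.6 (edgeR, adjusted p = 0.0026), SIGLEC1 95.8, 40.8 and 10.1 (edgeR, adjusted p = 0.0019) and CD36 50.7, 13.6 and 5.30 (edgeR, adjusted p = 0.027). Number 1 was the highest in all 4 groups for MARCO, MSR1 and CD163, and in 3 of 4 for CD36 and SIGLEC1. The call of CD36 was lost, leaving 4 of the 9, without untreated 1, without any 1 of the ALA libraries, without ConA 1 or 3, and with no filter on low counts. DAB2 was called in addition when exon and intron reads were counted together, which gave 6 of the 9.

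The other 4 genes did not pass this test. DAB2 averaged 124, 101 and 84.7 CPM in the numbers (edgeR, adjusted p = 0.67), STAB1 180, 155 and 132 (0.59) and MRC1 155, 94.5 and 153 (0.54). CLEC4G averaged 2.54, 2.07 and 0.764 CPM (edgeR, adjusted p = 0.21). Intron reads of CD163 also differed by number, at 15.5 to 19.8% of its gene reads in number 1 and 40.0 to 57.4% in numbers 2 and 3. The intron and mitochondrial shares of the whole libraries had the same split. So did MSR1 (43.2 to 55.3% against 73.0 to 90.8%), SIGLEC1 (31.9 to 40.9% against 49.6 to 79.0%) and MRC1 (17.3 to 21.9% against 27.8 to 34.6%). DAB2 had the reverse, 30.9 to 34.2% against 12.6 to 30.6%, and CD36, MARCO, STAB1 and CLEC4G overlapped.

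**Figure D5:**
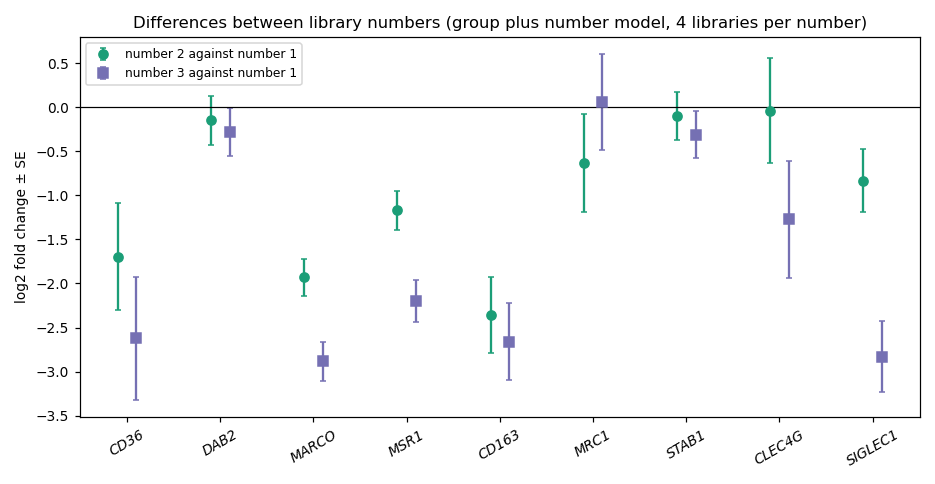
Fitted log2 fold change of numbers 2 and 3 against number 1 (vertical axis, points) with SE (bars), for each gene (horizontal axis), with the group in the model and 4 libraries per number. MARCO, MSR1, CD163 and CD36 lie well below 0 for both numbers and SIGLEC1 further below 0 for number 3 than for number 2, while DAB2, STAB1 and MRC1 lie near 0.

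Other genes of the same families and pathways were read from lists drawn up with earlier results of these data known, and their counts stand beside the 8.57% of all genes that fell with ConA and the 9.93% that rose. Counts with the block stand beside 21.2% of all genes that fell and 21.3% that rose in that model. Among 14 other scavenger receptors tested, 2 fell with ConA and 0 rose (7 and 1 with the block); their median was -0.72. CD5L, a soluble scavenger protein of macrophages, fell from 103 ± 57.9 to 6.27 ± 1.67 CPM (-4.05 ± 0.64). AXL, a receptor for dying cells, fell by 2.97 ± 0.88 on the log2 scale. LRP1 differed by -3.04 ± 0.98 and MERTK by -2.37 ± 1.04, called only with the block.

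Of 13 other lectin receptors, 4 fell with ConA and 0 rose (8 and 1 with the block), and the median was -0.98. CLEC7A, the beta-glucan receptor, fell by 5.74 ± 0.99 on the log2 scale, CLEC12A by 3.50 ± 0.69 and CLEC10A by 3.77 ± 1.18. All 3 were already low in untreated cells, at 1.97 to 6.34 CPM on average. LGALS9, a soluble galectin, fell from 446 ± 118 to 177 ± 53.1 CPM. Of the 3 other Siglecs tested, CD22, MAG and SIGLEC15, 0 were called by edgeR, and CD22, a B cell gene, fell with the block.

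Of 26 genes of clathrin-mediated uptake, the pathway in which DAB2 works, 2 rose and 2 fell with ConA (3 and 4 with the block), and the median was 0.03. These shares are no higher than those over all genes. LRP8, a receptor that binds such adaptors, rose by 1.22 ± 0.18 and CLTB, a clathrin light chain, by 0.60 ± 0.19. ARRB2, a beta-arrestin, fell by 1.20 ± 0.18 on the log2 scale. None of these 3 differed by more than 0.29 between ConA+ALA and ConA.

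Genes that handle the cargo of CD36 were mixed with ConA, and those that handle the cargo of CD163 had negative differences. Of 17 genes of fatty acid and oxidised LDL handling, 2 rose and 1 fell (5 and 2 with the block). FABP3, a fatty acid-binding protein, rose from 6.62 ± 1.48 to 35.2 ± 6.11 CPM and ACSL4 by 1.08 ± 0.33, while THBS1, a ligand of CD36, fell from 42.3 ± 17.5 to 2.92 ± 1.52 CPM. THBS1 lay at 33.9 ± 19.1 CPM with ConA+ALA, a difference from ConA of 3.52 ± 0.91 that edgeR did not call. Of 6 genes of heme clearance, 1 fell (4 with the block), BLVRB, a biliverdin reductase, by 1.45 ± 0.28 on the log2 scale. All 6 had negative differences, and the median was -1.13.

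Regulators and signals that shape macrophages were described in the same way. Of 18 macrophage transcription factors, 1 rose and 5 fell with ConA (3 and 8 with the block), among them TFEB, a lysosome regulator (-1.36 ± 0.28), and IRF5 (-1.31 ± 0.37). Of 18 growth and polarising signals, 4 rose and 2 fell (7 and 7 with the block). TNF rose by 2.57 ± 0.41, IFNG by 5.21 ± 0.86 and IL13, a type 2 helper cytokine that acts on macrophages, from 3.44 ± 2.40 to 75.1 ± 31.5 CPM. With ConA+ALA, IL13 lay at 162 ± 41.5 CPM, a difference of 1.11 ± 0.80 that was not called. IL13RA1, a receptor chain for it, fell by 1.71 ± 0.35 on the log2 scale.

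Of 19 other genes of alternatively activated macrophages, 3 rose and 7 fell with ConA (3 and 13 with the block). CCL22 rose by 3.55 ± 0.65, while SPP1 fell from 545 ± 420 to 18.5 ± 2.23 CPM and F13A1 and C1QA by 3.01 ± 0.44 and 3.40 ± 0.65 on the log2 scale. Interferon response genes, of which SIGLEC1 is a known target, fell in 13 of 16 (15 with the block), with OAS1 at -2.99 ± 0.48. Among monocyte markers 3 of 12 fell (8 with the block) and 0 rose. Their median was -1.36. FCGR1A, an IgG receptor, rose with ALA in ConA cells in the blocked model (2.22 ± 0.32). Without the block its difference of 2.24 ± 0.45 was not called.

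Genes with the most similar pattern over the 12 libraries were taken by Pearson correlation of log2 CPM among 10100 candidates, and all libraries in these correlations share the split by treatment and by number. For MRC1 they included DUS2 (0.912) and GAP43 (0.895), and for CLEC4G KEL (0.888), FBH1 (0.831) and DENND3 (0.819). DAB2 was matched by MNDA (0.981), PSEN2 and SLC45A4, STAB1 by INPP5F (0.984), MEIOC and COL5A1, and CD36 by KLF3 (0.98), TSC22D3 and ANPEP. MSR1 was matched by ANPEP (0.966), ACTR1B and LRP1, CD163 by PLOD1 (0.987), CTSA and ATP6AP1, MARCO by GPR155 (0.96), CDC42BPB and PLOD3, and SIGLEC1 by SLC6A6 (0.972), SMCHD1 and PLXNB2. GAP43 had a mean of 3.44 CPM in untreated cells and 34.7 with ConA+ALA, and like MRC1 had its highest mean there.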

How the data were processed

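Libraries of poly(A) RNA were sequenced with paired ends, per the labels' protocols. The deposited tables give whole-number counts of exon reads per gene, which entered the tests, and TPM, the authors' own normalization by exon length and depth, used only to compare levels between genes. The submitters' processing notes name the build CanFam3.1. No source used here gives the aligner, the counting tool or whether strand was used.

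Total exon counts were fitted with edgeR 4.0.16 in R 4.3.3 (TMM, filterByExpr, robust quasi-likelihood F-test, 4 group means, all 12 libraries), with Benjamini-Hochberg adjustment over 13358 genes and a threshold of 0.05. SE were derived from the fold change and its F. Log2 CPM used a prior count of 2. The biological coefficient of variation was 0.422, and 0.217 with the library number as a block. The numbers come from the titles. Deviations from group means correlated at 0.376 to 0.748 in the 18 pairs of libraries sharing a number and at -0.498 to 0.206 in the 36 other pairs between groups, so that the numbers were taken to pair the libraries. The code was checked on simulated data.

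The 9 genes and all gene lists were chosen with earlier results of these data known. From each list, up to 4 tested genes with the smallest unadjusted p in the comparison described were named, with further list genes added where a count is spelled out. The 3 most similar genes per member had a mean of at least 20 counts. Some genes that these rules took are not reported here. Alternatives were the block, DESeq2 1.42.0, limma-voom (limma 3.58.1), no filter, a filter at a mean of 50 counts, RLE size factors, total gene reads, unique exon reads, no mitochondrial or hemoglobin genes, the compared groups only, and each library or number left out. The block without each number was added after seeing the data. Figures used Python 3.11.15 and matplotlib 3.10.9.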

Additional observations from a re-analysis of the deposited data

Results flagged for a closer look

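MARCO moved in opposite directions with ALA in the 2 settings. Without ConA it was higher with ALA in each of the 3 numbers (log2 differences of 0.94, 0.40 and 0.85), and with ConA it was lower in each (-1.08, -1.79 and -0.35). The difference between the 2 effects was -1.945 on the log2 scale with an SE of 1.47, and it was not called by edgeR. It was -1.87 ± 0.36 with the number as a block, also not called. With the block and number 3 left out, a fit added after seeing the data, it was -2.06 ± 0.33 and past the threshold. That fit rests on 2 numbers and on a gene picked by these same values, so passing the threshold there is no test. Without ALA 1 the difference was -0.45 and without ConA 1 -0.89.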

How the results depend on the processing

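Of 1246 recomputed fold changes of single genes, 1171 kept their side of the threshold, 31 lost the call, 44 gained it and none reversed a call. Another 31 changed sign with no call on either side and are among the 1171. The number of the 9 genes called for ConA against untreated was 5, and 2 with limma-voom and 3 with no filter. Leaving out a library or a number gave 2 to 6. DAB2 and STAB1 kept their call in every fit of that comparison, while CD36 lost it with limma-voom and without number 2, and MSR1 and SIGLEC1 in the fits named above, with limma-voom, with no filter and without number 2. SIGLEC1 lost it without number 1 as well.

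For ConA+ALA against ConA the count was 0, and 1 with the replicate block, 2 with DESeq2, 1 with the block without number 2 and 4 with the block without number 3. For ConA+ALA against ALA it was 3, and 7 with the replicate block, 6 with DESeq2, 5 with total gene reads and 6 with the block without any 1 of the numbers. Leaving out a library or a number gave 0 to 4, with 0 without number 2. The interaction gave 0, and 1 with the block without number 3. The count for the library number was 4 to 6 over all alternatives run, and 4 to 5 with a library left out. ALA against untreated gave 0 under each alternative run. Apart from the replicate block on all libraries, the share of all genes called in these alternatives is not given here. Their counts can therefore not be read against it. The cause of these changes was not tested. CLEC4G had no value with a mean of at least 50 counts. Depth limits CLEC4G in all groups and CD36 in ConA cells.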
